A study of Mus musculus with 4 samples.

Results

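The genes described here are 10 mouse genes for GTPases that interferons induce: Irgm1, Irgm2, Igtp, Iigp1, Tgtp1 and Tgtp2 of the immunity-related GTPase (IRG) family, Gbp2, Gbp3 and Gbp7 of the guanylate-binding proteins, and Gvin1, a very large inducible GTPase. They were taken by symbol from the 55335 genes of the counts table, and their lower values in lactate-treated cells were known when they were chosen. Their differences between lactate and control are therefore given as a description, and the calls made on them across all genes are not read as evidence. RNA-seq was performed in AB2.2 mouse embryonic stem cells (ESCs), a line grown here on feeder cells (mouse embryonic fibroblasts) in medium with serum, LIF and the inhibitors CHIR99021 and PD0325901. The 2 control libraries had no added lactate, and the 2 lactate libraries came from the same culture system with 50 mM lactate for 24 h. Total RNA was taken from the culture, so feeder RNA may be present. The labels do not say whether replicates were separate cultures, so p-values measure only the spread between these libraries, which may be technical.

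IRG proteins and guanylate-binding proteins defend cells from within. Effectors such as those of Iigp1, Tgtp1 and Tgtp2 coat the vacuoles in which parasites and bacteria live, while Irgm1, Irgm2 and Igtp (also called Irgm3) sit on the cell's own membranes and hold the effectors inactive there. Transcription of these genes is classically driven by interferon gamma, whose receptor signals through the kinases JAK1 and JAK2 to the gamma-activated site (GAS) of promoters, and by type I interferon, whose receptor signals through JAK1, TYK2, STAT2 and IRF9 to the interferon-stimulated response element (ISRE). Pluripotent cells are known for a weak response to interferon, whereas fibroblasts respond well.

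Promoters of most of these genes carry the letters of the ISRE, and some also those of the GAS, close to the start site. The search used GAAA, any 2 bases and GAAA again for the ISRE, on both strands, and TTCNNNGAA (N is any base) for the GAS, which reads the same on both strands, over the 250 bases before each RefSeq start site (build GRCm38.p6). Promoters were found for 8 of the 10 genes, all but Gvin1 and Iigp1. These 8 genes have 9 promoters, of which 8, 1 of each gene, held the ISRE letters, and a second start site of Gbp3 held neither motif. In 5 promoters, those of Tgtp1, Tgtp2, Igtp, Irgm2 and Gbp7, the GAS letters were also found. Among all 32851 promoters of that length, 2.98% held the ISRE letters, 7.02% the GAS letters and 0.332% both. Of 7 other inducible GTPase genes with a promoter, 4 held the ISRE letters, and of 11 relatives that are not known as interferon-induced (dynamins, mitofusins, atlastins and the like) none did, where 2.98% is the general share. A match is a description of the letters and not a bound site.

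**Figure D1:**
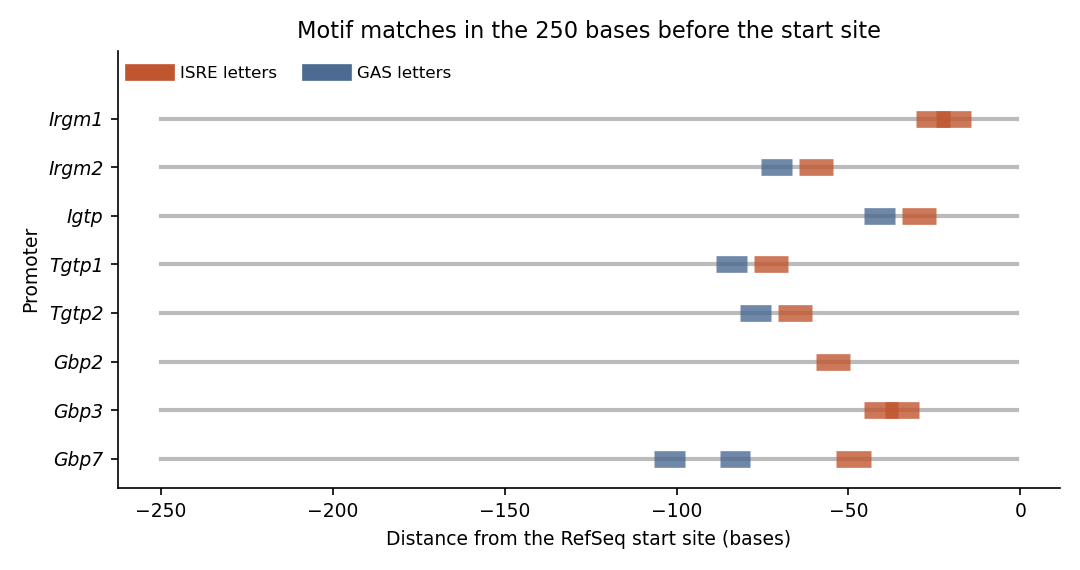
Matches to the ISRE letters (red) and GAS letters (blue) in the promoter of each of the 8 genes that holds a match, with the distance from the RefSeq start site in bases on the horizontal axis. Every ISRE match lies within 80 bases of the start, and in the 4 IRG promoters with both motifs the GAS lies just upstream of the ISRE.

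The windows below are shown because the 4 IRG promoters share 1 arrangement, a GAS followed after a 2-base gap by an ISRE. Sequences are 5′ to 3′ on the strand of the gene, in GRCm38 coordinates, with the motif letters in capitals.
Igtp (chr11:58199491-58199551, + strand, between genes): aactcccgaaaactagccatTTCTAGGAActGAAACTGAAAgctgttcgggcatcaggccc
Irgm2 (chr11:58214882-58214942, + strand, in an Irgm2 intron of GENCODE M21): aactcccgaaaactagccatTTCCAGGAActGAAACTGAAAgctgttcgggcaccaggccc
Tgtp1 (chr11:48992294-48992354, - strand, in introns of Tgtp1 and Olfr56): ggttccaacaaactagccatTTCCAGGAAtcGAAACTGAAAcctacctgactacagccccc
Tgtp2 (chr11:49064253-49064313, - strand, in an Olfr56 intron): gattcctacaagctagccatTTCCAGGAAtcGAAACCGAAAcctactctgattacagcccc
Compared base by base without gaps, the Igtp and Irgm2 windows differ at 2 of 61 bases.

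The promoters of Irgm1 and of the guanylate-binding proteins are arranged in other ways, and are shown for contrast. Gbp7 has both motifs far apart, with 2 GAS matches upstream of an ISRE on the opposite strand. Irgm1 and Gbp3 have 2 overlapping ISRE matches and Gbp2 has 1, with no GAS match. The Irgm1 and Gbp2 windows are kept to 30 bases because more than 30 bases of a wider window lie in exons of GENCODE M21, and the Gbp3 window has 9 bases in an exon.
Irgm1 (chr11:48871428-48871457, - strand): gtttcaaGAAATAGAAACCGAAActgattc
Gbp2 (chr3:142620594-142620623, + strand): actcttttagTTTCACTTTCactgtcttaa
Gbp3 (chr3:142559979-142560034, + strand): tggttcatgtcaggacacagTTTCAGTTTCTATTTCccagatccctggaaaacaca
Gbp7 (chr3:142530229-142530312, + strand): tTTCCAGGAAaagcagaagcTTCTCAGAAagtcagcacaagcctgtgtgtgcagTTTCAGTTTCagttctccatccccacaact

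The 10 genes lie in 5 places of the genome (GRCm38, GENCODE M21). Irgm1 (chr11:48861968-48871683), Tgtp1 (chr11:48985327-48994172) and Tgtp2 (chr11:49057194-49064206) stand in a row on the minus strand of chromosome 11. Igtp (chr11:58199556-58207591) and Irgm2 (chr11:58199618-58222782) overlap on the plus strand farther along, and share 162 exonic bases. Gbp7 (chr3:142530342-142550149), Gbp3 (chr3:142560026-142573209) and Gbp2 (chr3:142620602-142638008) follow each other on the plus strand of chromosome 3. Gvin1 (chr7:106156556-106215326) is on the minus strand of chromosome 7 and Iigp1 (chr18:60376027-60392634) on the plus strand of chromosome 18.

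Counts on genes summed to 18067562 and 19077885 in control replicates 1 and 2 and to 18542554 and 18948861 in lactate replicates 1 and 2. Mitochondrial genes took 5.48% and 5.72% of them in replicate 1 of control and of lactate, and 2.43% and 2.82% in replicate 2, so this share followed the replicate number and not the treatment. Levels are compared between genes in TPM, a unit that corrects for transcript length and for the size of the library, as deposited. At this depth a count of 0 allows up to 3 reads in a library, a limit that covers counting error only.

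In the control libraries, RNA of the regulatory IRG genes was the most abundant among the members. Irgm1 was at 20.41 and 15.15 TPM in the 2 control libraries, above all other members. Irgm2 was at 8.58 and 7.2 TPM and Igtp at 6.87 and 7.27 TPM. These 2 regulators overlapped and cannot be ordered. The effector Tgtp1 followed with 4.26 and 3.01 TPM and Gvin1 with 1.21 and 1.36 TPM. Gbp3, Gbp2 and Gbp7 all lay between 0.30 and 0.75 TPM in control, with overlapping libraries. Iigp1 was nearly silent at 0.07 and 0.08 TPM, and Tgtp2 was listed at 0 in all 4 libraries.

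With lactate, the order at the top changed. Irgm2 led with 4.44 and 4.73 TPM, Igtp followed with 2.72 and 3.30 TPM, and Irgm1 came after both with 2.41 and 2.52 TPM. The libraries of these 3 genes did not overlap. Tgtp1 was at 0.49 and 0.68 TPM and Gvin1 at 0.27 and 0.37 TPM, while Gbp2, Gbp3 and Gbp7 lay between 0.11 and 0.38 TPM and overlapped with Gvin1. Summed over the 10 genes, the level was 42.9 and 35.8 TPM in control and 11.1 and 12.4 TPM with lactate. The loss was uneven: the lactate mean was 13.9% of the control mean for Irgm1 and 16.1% for Tgtp1, 24.9% for Gvin1, 42.6% for Igtp and 58.1% for Irgm2.

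**Figure D2:**
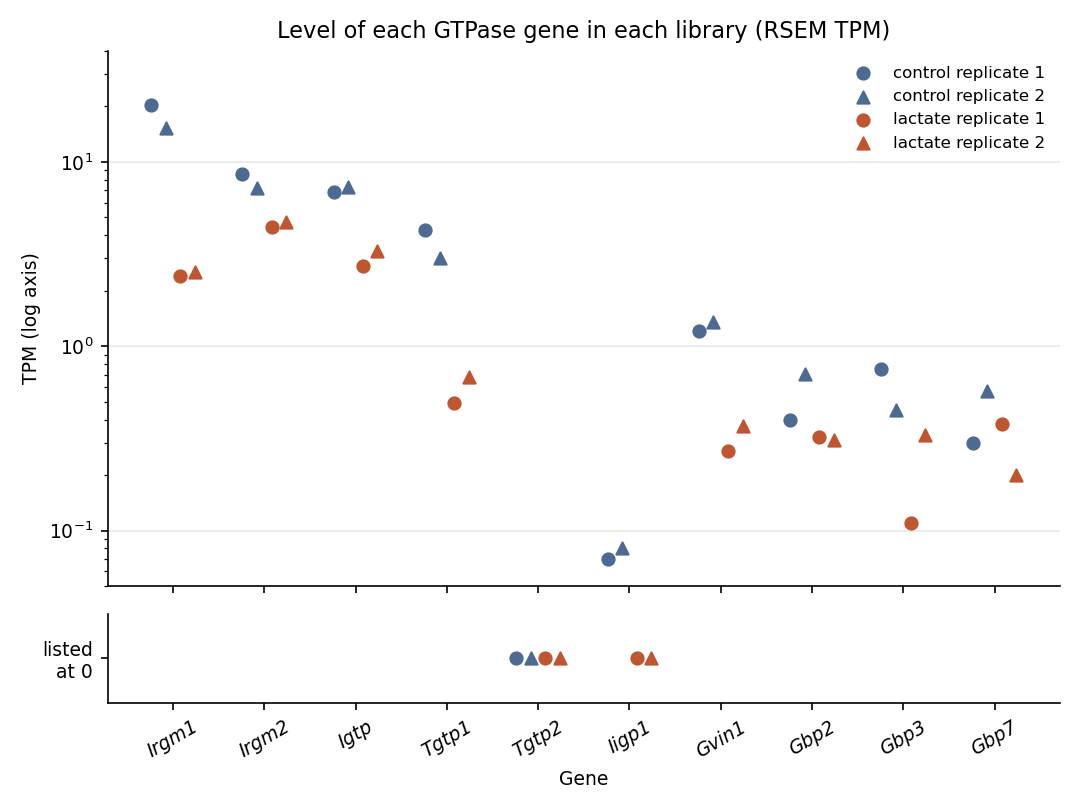
Level in TPM (log axis) of each of the 10 genes in each library, with control in blue, lactate in red, replicate 1 as circles and replicate 2 as triangles. The lower panel holds genes listed at 0. Irgm1 is the highest gene in control and lies below Irgm2 and Igtp with lactate, and the Gbp7 libraries of the 2 groups overlap.

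Differences between groups were taken from the raw read counts, as CPM (reads scaled to the size of each library) with edgeR. Of the 10 genes, 8 passed the filter on low counts, and Iigp1 and Tgtp2 did not. Calls required a Benjamini-Hochberg adjusted p-value under 0.05 and a change above 2-fold, and 3 members, Irgm1, Tgtp1 and Gvin1, were called lower, against 0.348% of all 18661 genes tested. In all 8, both lactate libraries lay below both control libraries in CPM, which held for 25.9% of all genes, while in 27.0% both lactate libraries lay above. The median log2 fold change was −1.55 over the 8 genes and 0.01 over all genes. The choice of the members used this contrast, so nothing is read from these counts. In a bulk culture, fewer cells of a type and less RNA per cell cannot be told apart.

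Among the regulators, Irgm1 changed most. Its raw reads were 487 and 378 in control and 65 and 76 with lactate, about the same in both lactate libraries. This gave 24.0 ± 5.83 CPM in control and 3.67 ± 0.252 CPM with lactate (SD, n = 2), a log2 fold change of −2.71 (SE 0.24), or 6.53-fold lower. Irgm1 is needed in mice for resistance to intracellular bacteria and protozoa. Igtp had 160 and 183 reads in control and 62 and 87 with lactate, a log2 fold change of −1.28 (SE 0.22). Irgm2, its neighbour with the nearly identical promoter window, had 338 and 301 reads in control and 176 and 198 with lactate, a log2 fold change of −0.86 (SE 0.18). The 3 regulators thus differed in size of change, with Irgm2 the least changed and Irgm1 separated from it in every pair of libraries: the log2 ratios of the 4 lactate and control pairs ran from −3.01 to −2.37 for Irgm1, from −1.53 to −1.07 for Igtp and from −1.05 to −0.66 for Irgm2.

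Among the effectors, only Tgtp1 had enough reads to describe. It had 94 and 65 reads in control and 10 and 15 with lactate, which gave 4.43 ± 1.42 and 0.649 ± 0.157 CPM (SD, n = 2), and a log2 fold change of −2.75 (SE 0.37), or 6.72-fold lower. Its size was thus close to that of Irgm1, its neighbour on chromosome 11. Iigp1 had 3 and 2 reads in control and 0 and 0 with lactate, and Tgtp2 had 1 read, in lactate replicate 2. Both are at or below the limit of 3 reads in every library, and no fold is given.

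The guanylate-binding proteins assemble on vacuoles and bacteria and take part in their breakdown. Gbp3 had 22 and 15 reads in control and 4 and 7 with lactate, with a log2 fold change of −1.81 (SE 0.47). For Gbp2 the reads were 12 and 20 in control and 6 and 9 with lactate, with a log2 fold change of −1.16 (SE 0.42). Both were lower in every lactate library, but with few reads and wide errors. Gbp7 had 19 and 25 reads in control and 17 and 8 with lactate, with a log2 fold change of −0.88 (SE 0.43), and its groups overlapped in TPM, with 0.30 and 0.57 in control and 0.38 and 0.20 with lactate. Gvin1 had 59 and 71 reads in control and 15 and 15 with lactate. The libraries of each group were close, at 3.58 ± 0.234 and 0.784 ± 0.0329 CPM (SD, n = 2), and the log2 fold change was −2.18 (SE 0.26), or 4.54-fold lower.

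**Figure D3:**
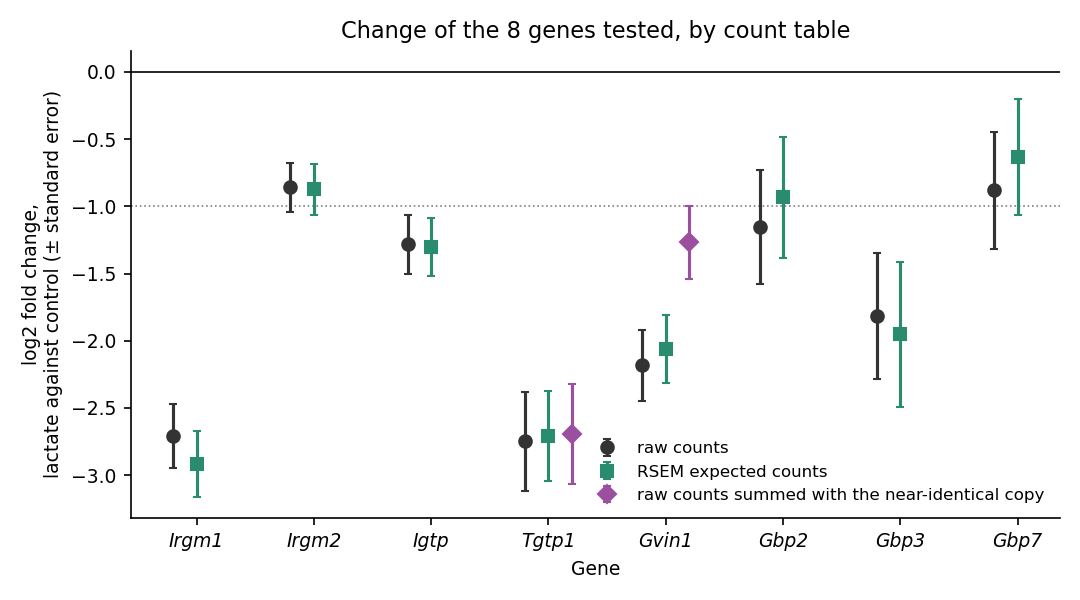
Log2 fold change of lactate against control with its standard error for the 8 genes tested, from raw counts (black circles), RSEM expected counts (green squares) and raw counts summed with the near-identical copy (purple diamonds). The dotted line marks a 2-fold fall. The tables give like values, and Gvin1 moves from −2.18 to −1.27 once its copy is added.

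Several of these genes have near-identical copies, so that short reads may not belong to 1 gene. The coding sequences of Tgtp1 and Tgtp2 were 99.68% identical, with 4 mismatches over 1245 bases, and those of Gvin1 and its neighbour Gm4070 (chr7:105895139-105953967) 99.96% identical, with 3 mismatches over 7281 bases. Of all stretches of 50 bases in their annotated transcripts, Tgtp1 shared 81.2% with other genes, Tgtp2 86.6% and Gvin1 99.2%. In the other 7 members the shared part was between 0.38% for Irgm1 and 12.7% for Gbp7. Igtp shared 11.8%, all of it with Irgm2. These genes overlap on the same strand in 162 exonic bases, and their coding sequences were 74.6% identical.

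The deposited tables treat such reads differently. RSEM divides reads among the genes they could come from and gives expected counts, while the GeneCounts setting of STAR, named in the study's methods for counting, leaves out reads that map to several places. The raw table also holds families of transposable elements, whose counting the sources used here do not give. Raw reads per RSEM read, summed over 4 libraries, were 0.742 for Tgtp1 and 0.495 for Gvin1, where the median over 17596 genes was 1.22 and 2.94% of genes lay under 0.8. The 6 members with little shared sequence lay between 1.04 and 1.22. RSEM gave all reads of the Tgtp pair to Tgtp1, with 121 and 92 expected counts in control and 14 and 21 with lactate, and listed Tgtp2 at 0. Gvin1 received 116.56 and 141.49 expected counts in control and 26.64 and 38.83 with lactate. Transcripts of Gm4070 held 98.3% of the stretches counted above for Gvin1, which is a share of sequence and not of reads. The raw table still held 0.495 reads of Gvin1 per RSEM read. The part of the Gvin1 reads that could also come from Gm4070 was not tested.

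**Figure D4:**
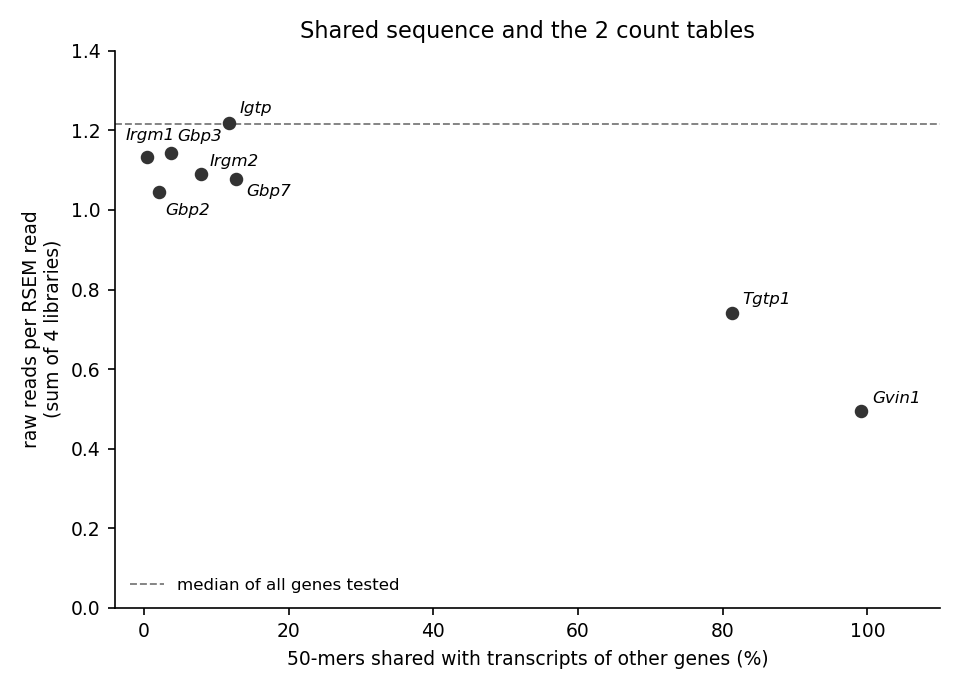
Raw reads per RSEM read, summed over the 4 libraries, against the percent of 50-base stretches of each gene that are also in transcripts of other genes, for the 8 genes tested. The dashed line is the median of all genes tested, 1.22, and Tgtp1 (0.742) and Gvin1 (0.495) lie far below it.

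For the Tgtp pair, pooling raw reads could change little, because Tgtp2 had only 1 raw read. Any reads that the raw counting left out are not brought back by a sum, so it is no check on them. With both genes summed there were 94 and 65 raw reads in control and 10 and 16 with lactate, a log2 fold change of −2.69 (SE 0.37). For Gvin1 the pooled size differed from that of the gene alone. Gm4070 had 37 and 18 reads in control and 32 and 19 with lactate, following the replicate number, with a log2 fold change of −0.19 (SE 0.48). The sum of Gvin1 and Gm4070 was 96 and 89 reads in control and 47 and 34 with lactate, a log2 fold change of −1.27 (SE 0.27), and it was not called. In RSEM expected counts, the log2 fold changes were −2.91 (SE 0.25) for Irgm1, −2.71 (SE 0.34) for Tgtp1 and −2.06 (SE 0.25) for Gvin1, and of the members only Irgm1 was called.

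The remaining inducible GTPase genes were few and mixed in direction. Of 21 such genes in the table, 4 passed the filter, and edgeR called none of these at a Benjamini-Hochberg adjusted p-value under 0.05 (smallest 0.107), 1 had an unadjusted p under 0.05, and DESeq2 called none. Their median log2 fold change was 0.10. Mx2, a gene of the dynamin-like antiviral GTPases, is annotated as a polymorphic pseudogene in GENCODE M21. It had 26 and 40 reads in control and 11 and 17 with lactate. Its log2 fold change was −1.31 (SE 0.35, edgeR adjusted p = 0.107). Gbp9 pointed the other way with 63 and 57 reads in control and 101 and 85 with lactate, and a log2 fold change of 0.55 (SE 0.24, edgeR adjusted p = 0.236). Of the genes below the filter, Gbp8 had 2 and 0 reads in control and 6 and 14 with lactate, Gbp5 had 5 and 1 in control and none with lactate, and Gm5431, Gm1966 and Gm8995 had no read in any library. EdgeR called Gbp8 without lactate replicate 1 and Mx2 without lactate replicate 2.

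The interferon pathway itself was read from 27 genes grouped by role. No ligand gene of the list was detectable in more than a few reads: Ifng, Ifnb1, Ifnl2 and Ifnl3 had 0 reads in every library, and Ifnk 0 and 0 in control and 3 and 2 with lactate. Of the 21 genes that passed the filter, 1 was called lower (background 0.348%) and none higher (background 0.552%). By unadjusted p under 0.05, 7 were lower and none higher, where 11.4% and 11.7% of all genes were. Their median log2 fold change was −0.18.

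The called gene was Usp18, a protease and brake on the type I interferon receptor, which is itself interferon-induced. It had 100 and 122 reads in control and 25 and 35 with lactate, without overlap, and a log2 fold change of −1.96 (SE 0.25, edgeR adjusted p = 0.0406). The factors that carry the signal to the nucleus gave smaller values that missed the threshold. Stat2 had 1549 and 1612 reads in control and 972 and 1026 with lactate (log2 fold change −0.74, SE 0.12, edgeR adjusted p = 0.0526). Irf7, which amplifies type I interferon, had 166 and 138 reads in control and 72 and 78 with lactate (log2 fold change −1.11, SE 0.22, edgeR adjusted p = 0.0656), and DESeq2 called it. Irf9 stood at −0.62 (SE 0.15) and Irf1 at −0.49 (SE 0.17), with edgeR adjusted p-values of 0.0929 and 0.156. Other factors of these families lay near 0, with Stat3 at 0.12 (SE 0.13), Irf3 at 0.07 (SE 0.16) and Irf8 at −0.0036 (SE 0.35). Over the whole list, both lactate libraries lay below both control libraries in 11 of 21 genes and above them in 2, where 25.9% and 27.0% of all genes did.

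Receptors, kinases and the other inhibitors showed smaller differences. Ifngr1 and Ifngr2, the chains of the interferon gamma receptor, had log2 fold changes of −0.18 (SE 0.19) and 0.03 (SE 0.25), and Ifnar1 and Ifnar2, the chains of the type I receptor, −0.41 (SE 0.13) and −0.09 (SE 0.17). The kinases Jak1, Jak2 and Tyk2 stood at −0.23 (SE 0.14), 0.16 (SE 0.17) and −0.18 (SE 0.13). Socs1 stood at −0.19 (SE 0.25). Socs3, the most abundant gene of the list and better known as a target of LIF and STAT3, stood at 0.11 (SE 0.14). Ptpn2 and Ptpn11, phosphatases that act on this pathway, stood at 0.25 (SE 0.17) and 0.27 (SE 0.16). None of these was called by edgeR.

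**Figure D5:**
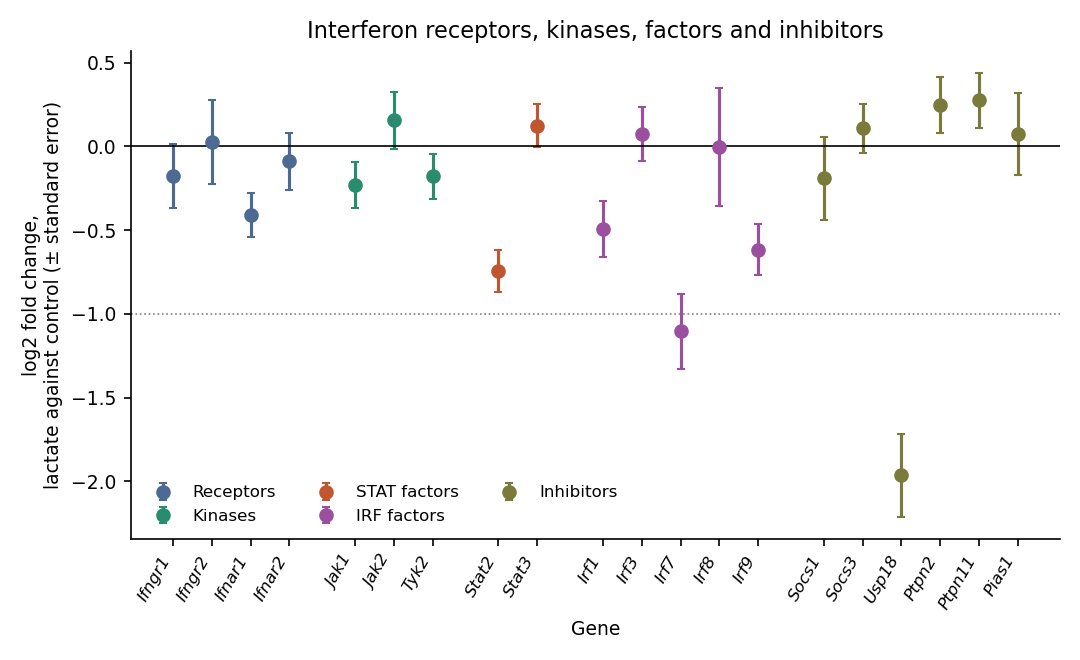
Log2 fold change of lactate against control with its standard error for interferon signalling genes that passed the filter, in order of role (receptors, kinases, STAT factors, IRF factors, inhibitors). The dotted line marks a 2-fold fall. Usp18 (−1.96) and Irf7 (−1.11) lie below it.

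Other well known targets of interferon gamma lay on both sides of 0. Of 23 genes, 17 passed the filter and edgeR called none (smallest Benjamini-Hochberg adjusted p = 0.0571). By unadjusted p under 0.05, 3 were lower and 1 higher, DESeq2 called none, and the median log2 fold change was −0.09. The lowest was Tapbp, the chaperone tapasin of MHC class I, which had 557 and 680 reads in control and 296 and 382 with lactate (log2 fold change −0.95, SE 0.17, edgeR adjusted p = 0.0571). Tap1, a transporter of peptides for MHC class I, stood at −0.88 (SE 0.27, edgeR adjusted p = 0.13), and without lactate replicate 2 edgeR called both. Its partner Tap2 stood at 0.80 (SE 0.35). B2m, the MHC class I light chain and the most abundant gene of the list, stood at 0.05 (SE 0.18), Wars at 0.30 (SE 0.16) and Bst2 at −0.47 (SE 0.24). Lgals3bp, a secreted glycoprotein, had a log2 fold change of −0.90 (SE 0.18, edgeR adjusted p = 0.064).

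Markers of the cell types in the culture were read beside these results. ESC markers were high, with summed levels of 6141 and 8595 TPM in control and 6962 and 10654 TPM with lactate over 12 genes, of which Dppa5a was the most abundant, and edgeR and DESeq2 called none (5 had an unadjusted p under 0.05, 1 lower and 4 higher). All 25 feeder fibroblast markers were detected, with none at 0, and their summed level was 1405 and 1618 TPM in control and 1768 and 1579 TPM with lactate. Fn1 was the most abundant of them. Without Fn1 the sum was 818 and 1024 TPM in control and 882 and 860 TPM with lactate. The median log2 fold change of the 25 was −0.06, with 15 below 0 and 10 above. EdgeR and DESeq2 called none, and 3 were lower and 2 higher by unadjusted p under 0.05. Col3a1, a fibrillar collagen, stood at −0.90 (SE 0.24) and Pdgfra, a growth factor receptor of mesenchyme, at 0.99 (SE 0.24, edgeR adjusted p = 0.0879), and without lactate replicate 2 edgeR called both. Single feeder markers thus pointed both ways, and their part in the result was not tested.

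Leukocytes and endothelium were checked as further possible sources. Of 12 leukocyte markers, 4 passed the filter, and neither edgeR nor DESeq2 called any (2 were higher by unadjusted p under 0.05). Their summed level was 37.3 and 32.7 TPM in control and 46.0 and 32.7 TPM with lactate, most of it Cd68. Markers differed among themselves. Itgam had 27 and 25 reads in control and 53 and 50 with lactate (log2 fold change 0.90, SE 0.26), Cd3e 36 and 32 in control and 55 and 64 with lactate (0.72, SE 0.25), and Csf1r 83 and 144 in control and 97 and 137 with lactate. RSEM gave Csf1r only 1 and 4.56 expected counts in control and 0 and 1 with lactate, so the tables differ on this macrophage marker. Among the defining markers Ptprc had 1 and 0 reads in control and 1 and 2 with lactate, Adgre1 0 and 2 in control and none with lactate, and Ncr1 none in any library. Of 7 endothelial markers, 3 passed the filter and none was called by either tool (1 was higher by unadjusted p). Their summed level was 17.4 and 20.2 TPM in control and 18.9 and 24.0 TPM with lactate, and Emcn had no read. Vwf was the most abundant by its mean over the 4 libraries, while Tek was higher in both libraries of replicate 1. Tie1, an endothelial receptor with 7 and 10 reads in control and 16 and 33 with lactate, was called higher by edgeR without lactate replicate 1. The part of these cell types in the result was not tested.

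Genes next to the GTPases were examined for a difference shared by the whole locus. Within 250 kb of the members, 33 other genes passed the filter, and edgeR called none, 4 were lower and 1 higher by unadjusted p under 0.05, and DESeq2 called none. Their median log2 fold change was −0.08. Next to Irgm1, Trim7 stood at −0.66 (SE 0.18, edgeR adjusted p = 0.112). Near Irgm2 and Igtp, Zfp672 pointed the other way at 0.95 (SE 0.20, edgeR adjusted p = 0.0691). No neighbour tested was changed by as much as 2-fold in the fit.

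The genes with a profile most like the mean of the 8 members were sought among 17517 genes, by the distance between centred log2 CPM values over the 4 libraries. The nearest was Oasl1, an interferon-induced relative of the oligoadenylate synthetases, with 29.7 and 26.9 CPM in control and 9.41 and 9.68 CPM with lactate (distance 0.0613). Others near it were Galr2, a receptor for galanin (0.123), and the small nucleolar RNAs Gm25894 (0.130) and Snord14e (0.158). With only 4 libraries many genes can have such a profile, and likeness here describes values alone.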

How the data were processed

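Reads of AB2.2 ESCs (TruSeq RNA libraries, 2 control and 2 lactate) were trimmed with cutadapt 1.16, and STAR and RSEM are named in the submitters' processing notes, on mm10. The authors deposited raw read counts for 55335 genes and 1153 families of transposable elements, and per library the expected counts, TPM and FPKM of RSEM. The study's methods name the GeneCounts setting of STAR and GENCODE release M23 for counting, but the counting of the transposable elements and the use of strand are not given in the sources used here, so overlapping genes (Igtp with Irgm2, Tgtp1 with Gm12185, Gbp7 with Gm43802) may share reads. The deposited expected counts were rounded for tests.

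Here, genes were filtered with filterByExpr (18661 left), normalized by TMM and tested with the quasi-likelihood test of edgeR 4.0.16 in R 4.3.3, lactate against control, with Benjamini-Hochberg adjustment over all genes. The standard error is the log2 fold change divided by the square root of F. The spread of the fit, the biological coefficient of variation, was 15.9%. DESeq2 1.42.0, limma 3.58.1 on log2(FPKM + 1), other scalings and filters, the expected counts, a replicate block, each library left out and summed copies were alternatives. Tests were checked on simulated data. Positions, transcripts and coding sequences came from GENCODE M21, and promoters from RefSeq. Shared sequence was counted as identical stretches of 50 bases on transcripts, and coding sequences were aligned over their full length.

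The members, gene lists and tests were chosen with earlier results of these data known. The lists, written from textbook knowledge, were other inducible GTPases, constitutive relatives, interferon signalling, interferon gamma targets, autophagy factors of vacuole targeting, and ESC, feeder, leukocyte and endothelial markers. Gm17757 and Rabgdia of these lists were not found in the table. Named genes are the 10 members, the called genes of each list, its 3 most abundant and 2 most changed genes, and the 5 nearest profiles. Some genes that this rule would name are not reported here. Other list genes were named for their role, after their values were seen.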

Additional observations from a re-analysis of the deposited data

How the results depend on the processing

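With 2 libraries a group, counts of calls depended on the method, while the direction of the members did not: in all 125 values of single members under the alternatives the log2 fold change was below 0, and 25 of these differed from the reported value by more than its standard error. Members called lower, 3 by edgeR, were 5 with no filter on low counts (adding Igtp and Gbp3), 1 in RSEM expected counts (Irgm1), and 0 with limma on log2(FPKM + 1), with or without a filter, and on log2(FPKM + 0.1), where no gene of any kind was called. DESeq2 called 4 and the summed copies left 2. Summing the copies and edgeR without its legacy form (112 genes higher and 70 lower) were chosen after seeing the data. Genes called higher, 103 by edgeR, were 213 by DESeq2, 482 with no filter, 27 in RSEM counts and 0 with limma, and genes called lower, 65, were 162, 325, 17 and 0. Library totals alone gave 108 higher and 40 lower. Interferon signalling genes called, 1, were 2 by DESeq2 and with no filter and 0 with limma. Other inducible GTPases called, 0, were 1 with no filter (Mx2).

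Over the genes tested, the deviations of same-numbered libraries from their group means had a correlation of 0.56. The mitochondrial share also followed the replicate number. There are only 2 pairs, the labels do not say what the numbers stand for, and the main fit did not use them. The fit with a replicate block called 761 genes higher and 395 lower, 6 members (adding Igtp, Gbp2 and Gbp3), 2 interferon signalling genes, 1 other inducible GTPase (Mx2) and the endothelial marker Tie1. Leaving out each library in turn gave 45 to 502 genes higher, 39 to 367 lower, 3 to 4 members, 1 to 2 signalling genes, 0 to 1 other GTPases (Gbp8 without lactate replicate 1, Mx2 without lactate replicate 2) and 0 to 2 interferon gamma targets (Tap1 and Tapbp without lactate replicate 2). Markers called were Col3a1 and Pdgfra without lactate replicate 2 and Tie1 without lactate replicate 1. The lowest gene counts came without control replicate 1 and the highest without lactate replicate 2, and a lone library is assumed there to vary like the other group. Gbp7 ranged from −1.59 to −0.12 over all alternatives. The cause of these changes was not tested. Depth limits Iigp1, Tgtp2 and the Gbp genes, with at most 25 reads in a library.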

Other observations

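Relatives of the GTPases that are not known as interferon-induced lay mostly above 0. Of 12 such genes 10 passed the filter, 7 were above 0 and 3 below, and the median log2 fold change was 0.22. EdgeR and DESeq2 called none, and 1 was lower and 2 higher by unadjusted p under 0.05. Irgq, an IRG relative, stood at −0.61 (SE 0.19, edgeR adjusted p = 0.13) and Dnm1, a dynamin of endocytosis, at 0.59 (SE 0.15, edgeR adjusted p = 0.101). The most abundant was Dnm1l, which divides mitochondria.

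Factors that mark vacuoles for the GTPases, from the ubiquitin and autophagy systems, lay on both sides of 0. All 16 passed the filter, none was called by edgeR (smallest adjusted p = 0.0814) or DESeq2, 3 were lower and 2 higher by unadjusted p under 0.05, and the median log2 fold change was 0.02. Atg12, part of the conjugate that lipidates LC3, stood at 0.56 (SE 0.13) and Trim21, a ubiquitin ligase, at −0.79 (SE 0.22). The ubiquitin gene Ubb, the most abundant of the list, stood at −0.56 (SE 0.15).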
